A study of Homo sapiens with 9 samples.

Results

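The proteins of the MYC, MAX and MXD network are transcription factors of the basic helix-loop-helix leucine zipper class. Its genes were followed here in LNCaP cells, a line established from a lymph node metastasis of a prostate carcinoma, after addition of NRG1, a ligand of the ERBB3 and ERBB4 receptors. The 10 genes were chosen by name, with earlier results of these data known, so shares of members that passed are descriptive. They are MYC, its relative MYCL, the shared partner MAX, the MAX-binding repressors MXD1, MXD3, MXD4, MXI1, MNT and MGA, and the MAX-like partner MLX. All 10 were among the 37351 genes of the count table, and all 10 had enough reads to enter the test of 19250 genes. Cells had been deprived of serum and calcium and then received recombinant NRG1 at 15 ng/mL, and mRNA libraries were sequenced from cells collected at 0, 12 and 24 h, with 3 libraries (replicate wells of the 1 line) at each time. Buffer-treated cells of the later times were not analysed here, so the ligand and the time in culture cannot be told apart. P-values measure the spread between these wells.

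MYC forms a dimer with MAX that binds the E-box, a short motif whose preferred form is CACGTG, and recruits coactivators to raise transcription. MAX also pairs with the MXD proteins, with MNT and with MGA. These dimers bind the same motif and recruit corepressors such as SIN3. The level of MYC RNA relative to that of its antagonists is used here to describe the network's transcripts. Proteins and dimers of the network were not measured, and RNA levels need not follow them. MLX pairs with the glucose-responsive factors MondoA and ChREBP and with some of the MXD proteins. In prostate carcinoma, MYC is among the genes most often gained in copy number.

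Each library held 47016302 to 60985825 counts. All 8 prostate luminal markers examined were detected, at 48.2 to 1608 CPM at 0 h. CPM are counts per 1e6 counts in tested genes, with library totals scaled by TMM. Markers of basal cells and leukocytes summed to at most 0.325 and 0.148 CPM in any library. Summed over the luminal markers, libraries held 4646 to 4704 CPM at 0 h and 4279 to 4396 CPM at 24 h. Of the stromal and endothelial markers, COL1A1 (24.6 CPM before NRG1) and VWF (13.1 CPM) were the most abundant, COL3A1 was at 0.567 CPM, and DCN and PECAM1 were close to 0. At 24 h COL1A1 was 22.8 CPM, VWF was 7.39 CPM and COL3A1 was 1.43 CPM. Their part in the results was not tested. In RNA from whole cultures, fewer cells with a transcript and less of it per cell cannot be told apart.

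MYC itself, along with MXI1, MNT and MXD1, was higher after NRG1, and MXD4 was lower, all by less than 1.5-fold. At 12 h, 5 of the 10 members passed an adjusted p of 0.05 (edgeR quasi-likelihood test, Benjamini-Hochberg over all genes), 4 of them higher and 1 lower, against 18.7% of all genes tested (10.6% higher and 8.16% lower). At 24 h, 6 of the 10 passed, 4 higher and 2 lower, with MXD3 added to the 5, against 21.1% of all genes (11.6% higher and 9.48% lower). None of the 10 reached a fold of 1.5 with that p at either time, where 2.37% (0.992% higher, 1.38% lower) and 3.31% (1.53% higher, 1.78% lower) of all genes did. The median log2 difference of the members was 0.08 at 12 h and 0.09 at 24 h, beside -0.0084 and -0.0068 for all genes. Hereafter "rose" and "fell" are used of genes that passed this test.

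**Figure D1:**
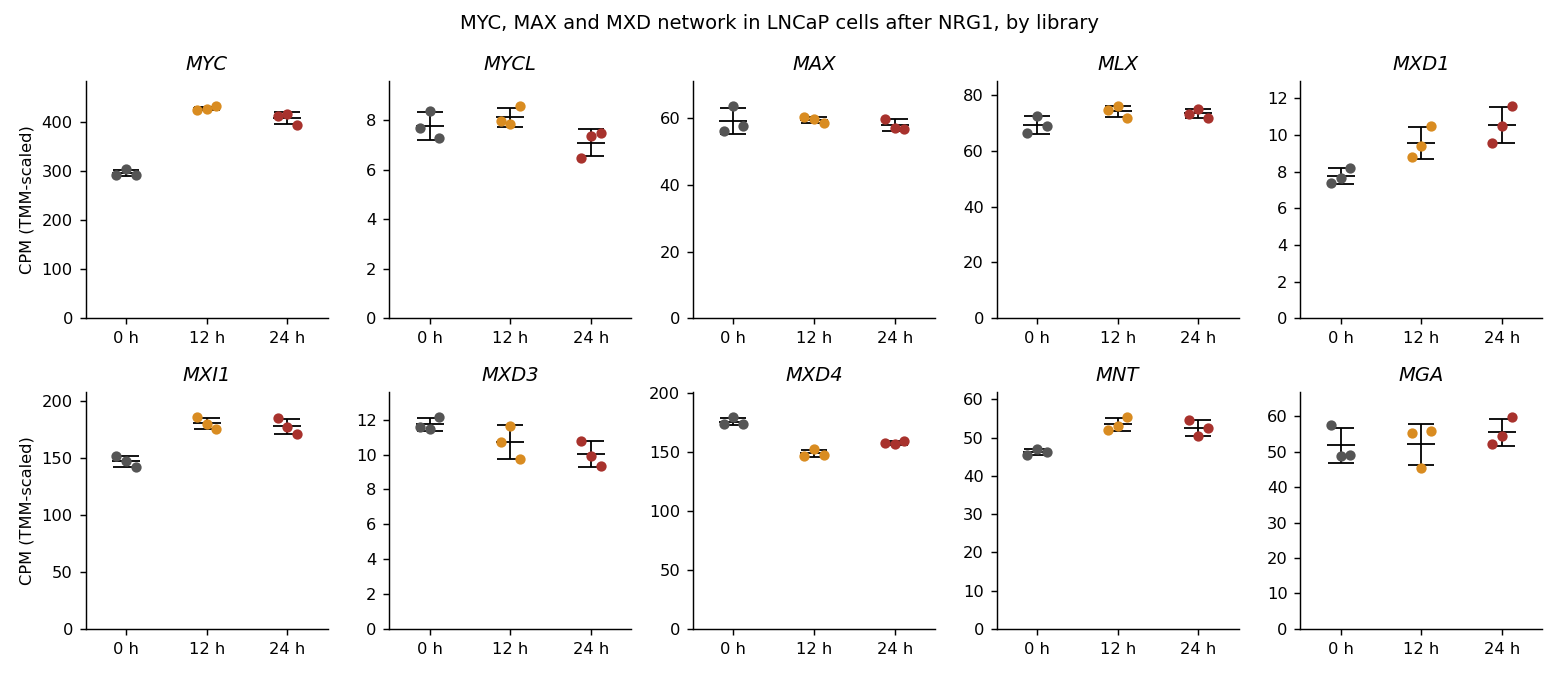
CPM of each of the 10 network genes in each of the 9 libraries, 1 panel per gene, against hours after NRG1. Points are libraries and bars the mean and SD of 3. The 3 MYC libraries at 12 h (425 to 431 CPM) lie above all those at 0 h (291 to 304 CPM), and those of MXD4 at 12 h (147 to 152 CPM) lie below those at 0 h (174 to 179.5 CPM).

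MYC (ENSG00000136997, GRCh38 chromosome 8, 127735434 to 127742951) had 291, 304 and 292 CPM at 0 h, 425, 426 and 431 CPM at 12 h, and 412, 416 and 393 CPM at 24 h. All 6 libraries after NRG1 were above all 3 at 0 h, and all 3 at 24 h were below all 3 at 12 h. Its mean moved from 295 ± 6.97 CPM (SD, n = 3) to 427 ± 3.29 and 407 ± 12.2 CPM, so MYC rose by 0.53 on the log2 scale at 12 h (SE 0.031, edgeR adjusted p = 1.61e-15) and by 0.46 at 24 h (SE 0.031, edgeR adjusted p = 4.95e-14). The difference of 24 h from 12 h, -0.07, did not pass (edgeR adjusted p = 0.196). MYC passed at both times in each of the 16 alternative fits, with values of 0.52 to 0.55 at 12 h and 0.45 to 0.49 at 24 h. MYCL (ENSG00000116990, chromosome 1, 39895426 to 39902256), the family member first found amplified in small cell lung cancer, ranged from 6.46 to 8.55 CPM over the 9 libraries. Its means were 7.77 ± 0.558, 8.12 ± 0.381 and 7.09 ± 0.554 CPM, and the differences from 0 h, 0.06 and -0.13, did not pass (edgeR adjusted p = 0.70 and 0.354). MYCN, the third family member, had 4 reads in all 9 libraries together and was not tested.

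No difference was detected for the partner that MYC and its antagonists share. MAX (ENSG00000125952, chromosome 14, 65006174 to 65102695) had 56.2, 63.6 and 57.8 CPM at 0 h, 60.4, 59.8 and 58.7 CPM at 12 h, and 59.9, 57.2 and 56.7 CPM at 24 h, with the groups overlapping. The 95% interval of its log2 difference from 0 h ran from -0.077 to 0.096 at 12 h and from -0.118 to 0.055 at 24 h. MLX (ENSG00000108788, chromosome 17, 42567072 to 42573239) was at 69.2 ± 3.20, 74.1 ± 2.10 and 73.4 ± 1.57 CPM, and its differences of 0.10 and 0.085 did not pass (edgeR adjusted p = 0.0701 and 0.126). MLX passed when 0 h replicate 2 was left out, at 0.14 and 0.12 (edgeR adjusted p = 0.0187 and 0.0368), and at 12 h without 12 h replicate 3 (0.13, edgeR adjusted p = 0.0477).

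Among the repressors, MXI1 and MXD4 were the most abundant per length and moved in opposite directions. MXI1 (ENSG00000119950, chromosome 10, 110207605 to 110287365), also known as MAD2 and a gene induced by hypoxia-inducible factors, had 152, 148 and 142 CPM at 0 h, 186, 179 and 175 CPM at 12 h, and 185, 177 and 171 CPM at 24 h. All of its libraries after NRG1 were above those at 0 h, and MXI1 rose by 0.29 at 12 h and 0.27 at 24 h on the log2 scale (SE 0.035 for both, edgeR adjusted p = 6.89e-08 and 2.17e-07). MXD4 (ENSG00000123933, chromosome 4, 2247432 to 2262109), a member associated with differentiation and growth arrest, had 174, 179.5 and 174 CPM at 0 h, 147, 152 and 147 CPM at 12 h, and 157, 156 and 159 CPM at 24 h. Its libraries after NRG1 were all below those at 0 h, and the 12 h libraries were the lowest. MXD4 fell by 0.24 at 12 h and by 0.16 at 24 h on the log2 scale (SE 0.032 for both, edgeR adjusted p = 5.55e-07 and 0.000322). Between 12 and 24 h MXD4 differed by 0.08 with no overlap of the libraries, which did not pass (edgeR adjusted p = 0.133).

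MNT (ENSG00000070444, chromosome 17, 2384073 to 2401104), the broadly expressed antagonist, had 45.5, 47.1 and 46.3 CPM at 0 h, 52.0, 53.0 and 55.3 CPM at 12 h, and 54.5, 50.5 and 52.6 CPM at 24 h. Every library after NRG1 exceeded those at 0 h, with rises of 0.21 (SE 0.041, edgeR adjusted p = 0.000314) and 0.18 (SE 0.042, edgeR adjusted p = 0.00126). MXD1 (ENSG00000059728, chromosome 2, 69897688 to 69942945), the founding MAD gene and a marker of terminal differentiation, had 7.36, 7.66 and 8.22 CPM at 0 h, 8.78, 9.41 and 10.5 CPM at 12 h, and 9.57, 10.5 and 11.6 CPM at 24 h. Its libraries after NRG1 were likewise all above those at 0 h. MXD1 rose by 0.30 at 12 h (SE 0.087, edgeR adjusted p = 0.0116) and by 0.45 at 24 h (SE 0.086, edgeR adjusted p = 0.000165). The 12 h rise was not passed without 12 h replicate 3 (0.24, edgeR adjusted p = 0.102), and MXD1 rested on 444 to 602 reads per library.

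MXD3 (ENSG00000213347, chromosome 5, 177301461 to 177312757), a member linked to the S phase of proliferating cells, had 11.6, 11.5 and 12.1 CPM at 0 h, 10.7, 11.7 and 9.73 CPM at 12 h, and 10.8, 9.89 and 9.37 CPM at 24 h. The 24 h libraries were all below the 0 h libraries, while those at 12 h overlapped them. MXD3 fell by 0.23 at 24 h (SE 0.079, edgeR adjusted p = 0.0337). It did not pass without 0 h replicate 1 (-0.24, edgeR adjusted p = 0.0509), without 0 h replicate 3 (-0.20, edgeR adjusted p = 0.129), without 24 h replicate 2 (-0.22, edgeR adjusted p = 0.0955) or without 24 h replicate 3 (-0.18, edgeR adjusted p = 0.161). MGA (ENSG00000174197, chromosome 15, 41621134 to 41773081), a large protein that carries both a T-box and the MAX-binding domain, ranged from 45.4 to 59.7 CPM with overlap between all 3 times. Its log2 difference from 0 h was 0.0078 at 12 h (95% interval -0.239 to 0.254) and 0.099 at 24 h (edgeR adjusted p = 0.599).

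Some of these genes share bases with neighbours, and the counting was not stated to use strand. MXD1 overlaps SNRNP27 on the same strand, a splicing factor gene with 214% of its reads, which differed from 0 h by 0.024 and 0.11 and did not pass at 12 or 24 h. MXD3 overlaps RAB24 on the same strand (173% of its reads) and PRELID1 on the other strand (891%). RAB24, a gene of vesicle traffic, fell by 0.33 at 12 h (edgeR adjusted p = 0.000444) and was at -0.16 at 24 h (edgeR adjusted p = 0.105), and PRELID1 did not pass at either time. Reads of the overlapping part of MXD1 and MXD3 are uncertain for this reason. MAX overlaps FNTB (11.5% of its reads) and MLX overlaps PSMC3IP (8.99%), both on the other strand, and neither neighbour passed.

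**Figure D2:**
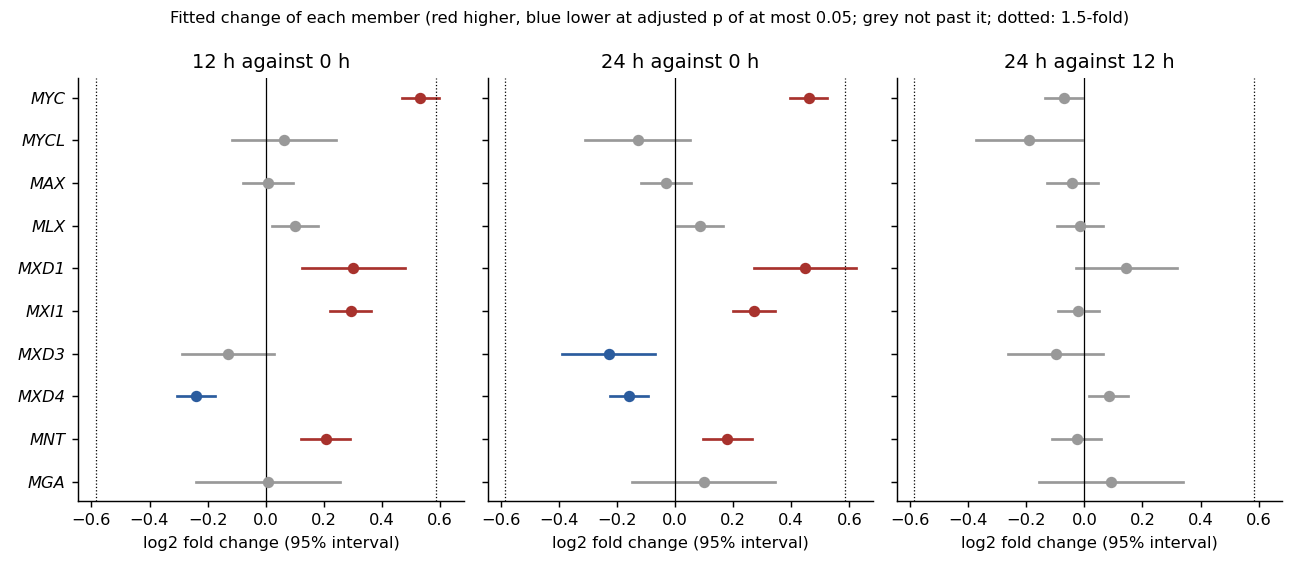
Log2 fold change of each of the 10 network genes for each pair of times, as fitted by edgeR, with bars for the 95% interval, red or blue for genes that passed higher or lower, and dotted lines at a fold of 1.5. MYC lies highest at 12 h and 24 h against 0 h, at 0.53 and 0.46, MXD4 lowest at 12 h at -0.24, and no member passed between 24 h and 12 h.

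Counting members whose libraries do not overlap gave 5 at 12 h (4 higher, 1 lower), 6 at 24 h (4 higher, 2 lower) and 3 between 24 and 12 h, where 32.8%, 33.5% and 24.4% of all tested genes did not overlap. No member passed between 24 and 12 h, by edgeR or by DESeq2, against 6.08% of all genes (3.03% higher, 3.05% lower), and 0.452% passed with a fold of 1.5 (0.249% higher, 0.203% lower). MYC, MYCL and MXD4 had an unadjusted p under 0.05 in that comparison. Over all 3 times together, MYC, MXD1, MXD4, MXI1 and MNT passed the F test, 5 of 10 members against 25.1% of all genes.

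The change in MYC was set against its 6 antagonists within each library, as log2 CPM of MYC minus the mean log2 CPM of MXD1, MXD3, MXD4, MXI1, MNT and MGA. This difference does not depend on how libraries are scaled, and since gene length enters its level, its changes between times are what can be read. It was 2.78, 2.86 and 2.79 at 0 h, 3.27, 3.28 and 3.27 at 12 h, and 3.19, 3.22 and 3.10 at 24 h. All libraries after NRG1 lay above those at 0 h, and all 24 h libraries below those at 12 h. Its mean was higher than at 0 h by 0.46 at 12 h and by 0.36 at 24 h, beside SDs of 0.044 at 0 h, 0.0071 at 12 h and 0.062 at 24 h. The log2 CPM of MYC was higher by 0.53 and 0.46, and the mean log2 CPM of the antagonists was also higher, by 0.072 and 0.10, which made the balance move less than MYC did. Without MXD4 the balance moved by 0.40 at 12 h and 0.31 at 24 h, and without MXD1 by 0.51 and 0.43.

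Taken 1 antagonist at a time, the log2 ratio of MYC moved most against the antagonists that fell or held level. Against MXD4 it moved by 0.77 at 12 h and 0.62 at 24 h, against MXD3 by 0.67 and 0.69, and against MGA by 0.53 and 0.36. Against MNT it moved by 0.33 and 0.28, against MXI1 by 0.24 and 0.19, and against MXD1 by 0.23 at 12 h and 0.02 at 24 h, where MYC and MXD1 had risen by nearly the same log2 amount. The CPM ratio of MYC to its partner MAX was 5.0 ± 0.206, 7.17 ± 0.160 and 7.02 ± 0.214 at 0, 12 and 24 h.

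**Figure D3:**
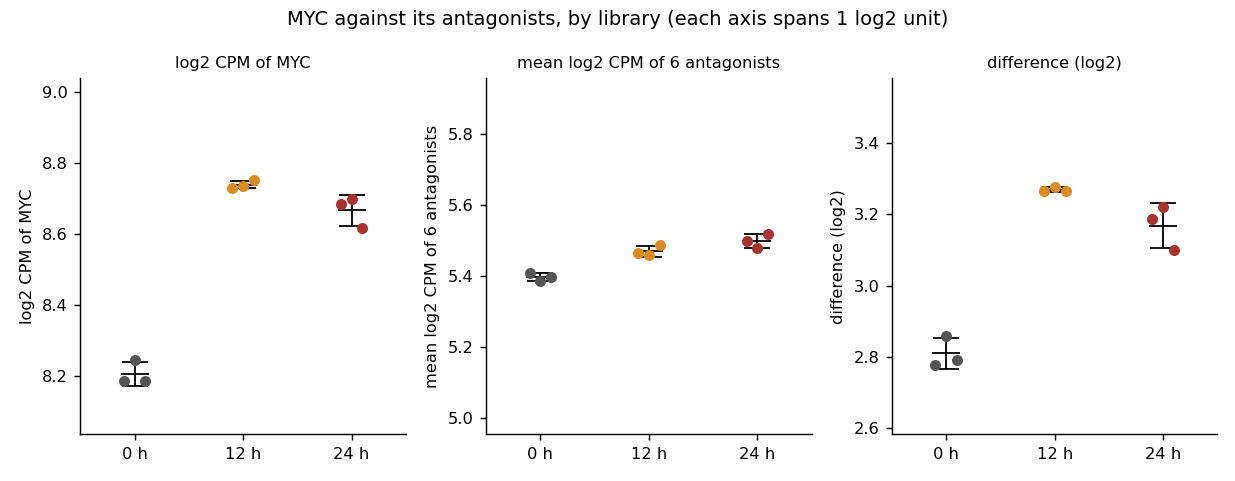
Balance of MYC against its 6 antagonists by library and hours after NRG1, taken as log2 CPM of MYC minus the mean log2 CPM of MXD1, MXD3, MXD4, MXI1, MNT and MGA. The left and middle panels plot its 2 terms and the right panel the difference, each over 1 log2 unit, with points for libraries and bars for the mean and SD of 3. The means of the difference were 2.81 at 0 h, 3.27 at 12 h and 3.17 at 24 h.

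Levels were compared between genes per kilobase of merged exons. At 0 h MYC was highest at 48.4 ± 1.14 CPM per kb, followed by MXD4 at 25.6 ± 0.469 and MXI1 at 24.9 ± 0.823 CPM per kb, a pair whose libraries overlapped. MLX followed at 16.3 ± 0.751, MAX at 9.46 ± 0.616 and MNT at 5.32 ± 0.0905 CPM per kb. MGA at 2.58 ± 0.249 and MXD3 at 2.47 ± 0.0754 CPM per kb overlapped, and MYCL at 1.56 ± 0.112 and MXD1 at 1.22 ± 0.0691 CPM per kb were lowest. At 12 and 24 h MXI1 (30.5 ± 0.876 and 30.1 ± 1.14 CPM per kb) stood above MXD4 (21.6 ± 0.442 and 22.9 ± 0.203 CPM per kb) with no overlap. At 24 h MXD1 (1.66 ± 0.157 CPM per kb) was above MYCL (1.43 ± 0.112 CPM per kb), an order that depended on the length used. With the length of the canonical transcript, MYCL stayed above MXD1, and MXD3 stood above MGA at each time and above MNT at 0 h (11 ± 0.335 against 9.40 ± 0.16 CPM per kb). MAX and MLX were then nearly equal at 0 h (29.5 ± 1.92 and 29.3 ± 1.35 CPM per kb).

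Per kilobase of merged exons, MYC stood at 0.779 ± 0.017 times the sum of the 6 antagonists at 0 h, 1.08 ± 0.0188 times at 12 h and 1.02 ± 0.0295 times at 24 h. MXD4 made up 41.2%, 33.5% and 35% of that antagonist sum at 0, 12 and 24 h, and MXI1 made up 40.1%, 47.2% and 45.8%. At each time these 2 genes thus held most of the antagonist transcript per length. Whether MYC stood above or below the antagonist sum depended on the length used. With the length of the canonical transcript, the MYC mean (79.4, 115 and 109 CPM per kb at 0, 12 and 24 h) was below the summed antagonist means at each time.

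**Figure D4:**
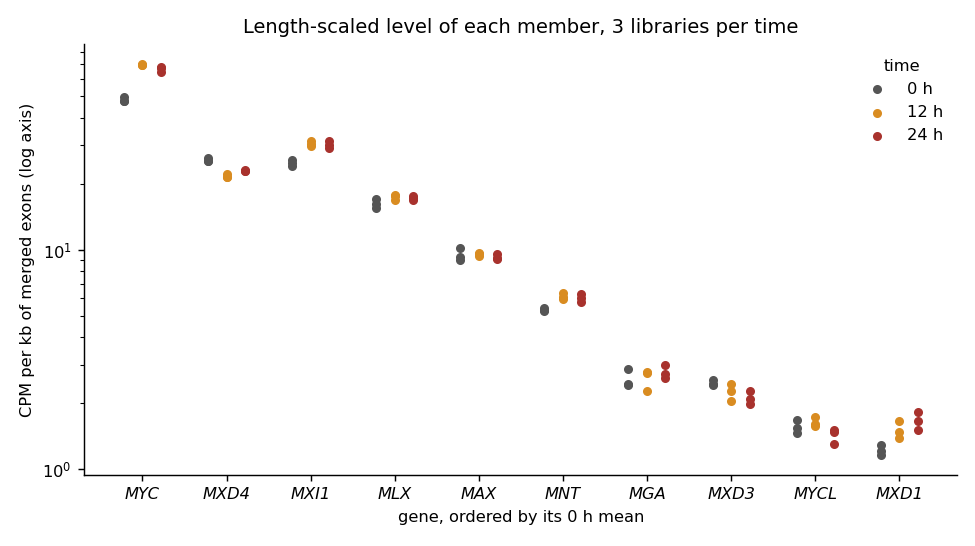
Level of each network gene in CPM per kilobase of merged exons at 0, 12 and 24 h, on a log axis, with a point for each library. MYC is highest at each time (48.4 CPM per kb at 0 h), and MXI1 is above MXD4 at 12 and 24 h.

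The promoters of 3 members hold the motif that the network's dimers prefer, and they are shown because MXD4, MNT and MLX are themselves part of the network. RefSeq windows (GRCh38.p14) from 250 bases before to 50 bases after a transcription start were matched for 9 of the 10 members in 14 windows, with MYC not among them, and the letters CACGTG, the same on both strands, occurred in 3 of them. Of all 35116 windows, 7.26% held the motif. The window of MXD4 is chr4:2262060-2262359 on the minus strand, that of MNT is chr17:2401011-2401310 on the minus strand and that of MLX is chr17:42566850-42567149 on the plus strand. Each is given 5′ to 3′ in the gene's direction, with the motif in capitals, starting 238, 193 and 50 bases upstream of the start, respectively.
MXD4: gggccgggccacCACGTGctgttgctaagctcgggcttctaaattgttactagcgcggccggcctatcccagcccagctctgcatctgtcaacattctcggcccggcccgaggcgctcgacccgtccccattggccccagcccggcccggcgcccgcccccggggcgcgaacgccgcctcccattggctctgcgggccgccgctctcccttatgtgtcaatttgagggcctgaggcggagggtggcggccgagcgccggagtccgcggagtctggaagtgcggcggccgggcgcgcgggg
MNT: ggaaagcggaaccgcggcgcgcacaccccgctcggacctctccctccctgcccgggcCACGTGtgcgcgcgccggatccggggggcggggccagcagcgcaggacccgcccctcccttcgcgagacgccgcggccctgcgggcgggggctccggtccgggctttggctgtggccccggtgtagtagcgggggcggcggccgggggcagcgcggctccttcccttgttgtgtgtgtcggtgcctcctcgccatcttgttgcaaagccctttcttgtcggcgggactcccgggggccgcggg
MLX: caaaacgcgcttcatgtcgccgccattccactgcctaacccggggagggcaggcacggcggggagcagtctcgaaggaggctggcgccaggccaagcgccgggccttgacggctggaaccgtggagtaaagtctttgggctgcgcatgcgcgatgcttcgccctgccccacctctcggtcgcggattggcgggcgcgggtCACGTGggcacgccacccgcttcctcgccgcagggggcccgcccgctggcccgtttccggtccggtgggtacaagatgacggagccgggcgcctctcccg
After NRG1, MXD4 fell, MNT rose and MLX did not pass, so the 3 members with the motif did not move together. A match of letters is a description and not a binding site.

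Genes around the network were described by 9 lists, chosen with earlier results of these data known, with 137 tested genes. Of these, 42 passed at 12 h (30.7%; 32 higher, 10 lower), 44 at 24 h (32.1%; 33 higher, 11 lower) and 16 between 24 and 12 h (11.7%; 6 higher, 10 lower), beside 18.7%, 21.1% and 6.08% of all genes. The genes named from each list are those with the lowest p over the 3 times.

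The list of genes commonly described as activated by MYC held the most that rose. Of 30 tested, 17 rose and none fell at 12 h by edgeR (56.7% called, beside 10.6% of all genes higher and 8.16% lower). At 24 h 18 rose and 1 fell (63.3% called, beside 11.6% of all genes higher and 9.48% lower). The median log2 differences were 0.17 and 0.14. ODC1, the rate-limiting enzyme of polyamine synthesis, rose by 0.29 and 0.22 (749 ± 6.26, 913 ± 17.4 and 873 ± 16.4 CPM). HK2, a hexokinase of glycolysis, rose by 0.29 and 0.27 (164 ± 10.2, 200.2 ± 5.72 and 198 ± 5.48 CPM). TFRC, the transferrin receptor, rose by 0.21 and 0.26, and BOP1, a factor of ribosome assembly, by 0.24 and 0.33. The 1 that fell at 24 h was PTMA, a chromatin protein gene chosen for mention after its values were seen (-0.13). The motif CACGTG was in promoter windows of 16 of the 27 matched genes of this list (59.3%). Of all 27305 genes with a window, 8.77% held it. The list was chosen as targets of a factor that prefers this motif, so its share is not an independent result. The motif was not particular to this list. Of the lists described below, 6 of 14 matched germline genes (42.9%) and 4 of 13 matched stability genes (30.8%) held it. It was in 3 of 15 coactivators, 1 of 11 network partners, 1 of 11 PRC1.6 subunits and 1 of 16 corepressors. Of the MYC-repressed genes, 0 of 7 held it.

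Genes commonly described as repressed by MYC moved in both directions. Of 12 tested, 2 fell at 12 h (16.7% called, near the 18.7% of all genes, of which 8.16% were lower). At 24 h 4 fell and 1 rose (41.7% called, beside 21.1% of all genes, 9.48% lower and 11.6% higher). The medians were -0.030 and -0.015. CDKN1B, the cyclin-dependent kinase inhibitor p27, fell by 0.16 at 12 h and by 0.23 at 24 h (158 ± 3.91, 142 ± 2.67 and 135 ± 2.84 CPM). At 24 h CDKN1A, the inhibitor p21, fell by 0.19 and CDKN1C, the inhibitor p57, fell by 0.70 (3.96 ± 0.555 to 2.43 ± 0.0667 CPM). CLU, a secreted chaperone, rose by 0.59 at 24 h (9.19 ± 0.301 to 13.9 ± 1.31 CPM).

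Transcripts of the region around MYC on chromosome 8 were also examined, from LRATD2 (starting at 126552443) to CYRIB (starting at 129839593). Not all of them adjoin MYC. CASC11, which overlaps MYC on the other strand, had 1.03 ± 0.180, 1.18 ± 0.0888 and 0.896 ± 0.0871 CPM at 0, 12 and 24 h. Its mean was thus above that of 0 h at 12 h and below it at 24 h. CASC11 did not pass at 12 h (0.20, edgeR adjusted p = 0.617) or at 24 h. Of 8 tested, 2 rose at 12 h (25%, beside 18.7% of all genes called and 10.6% higher). At 24 h 4 rose (50%, beside 21.1% called and 11.6% higher), and none fell at either time. PVT1, the long noncoding RNA beside MYC, rose by 0.19 and 0.15 (31.4 ± 0.725, 36.0 ± 1.42 and 34.8 ± 1.48 CPM), and PCAT1 by 0.23 and 0.14 (47 ± 0.492, 55.1 ± 2.37 and 52.0 ± 2.14 CPM). At 24 h LRATD2 rose by 0.14 (105 ± 3.89 to 116 ± 4.94 CPM) and CASC8 by 0.91 from a low level (0.796 ± 0.229 to 1.5 ± 0.194 CPM). The 24 h call of PVT1 was lost without 0 h replicates 2 or 3 or 24 h replicates 1 or 3, with values of 0.12 to 0.18 over all libraries left out in turn. That of PCAT1 was lost without 24 h replicate 1 (0.13) and that of LRATD2 without 24 h replicate 3 (0.10). PCAT1 overlaps LRATD2 and CASC8 on the other strand, so their reads are uncertain.

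The other network partners, with the MondoA targets TXNIP and ARRDC4, had 2 of 9 tested genes higher and 2 lower at 12 h (44.4% called, beside 18.7% of all genes). At 24 h 3 were higher and 1 lower (44.4%, beside 21.1%). This 24 h count of 4 was 2 without 0 h replicate 2 or without 24 h replicate 3. MLXIP, which encodes MondoA, fell by 0.12 at 12 h and by 0.18 at 24 h (161 ± 1.61, 148 ± 6.91 and 142 ± 1.90 CPM). ARRDC4, an arrestin-domain gene, rose by 0.15 and 0.12, and MITF, the melanocyte factor of a related class, rose by 0.27 at 24 h (9.13 ± 0.548 to 11 ± 0.28 CPM). USF2, an E-box factor, fell by 0.10 at 12 h. The remaining gene that rose at 24 h was TFEB, a lysosomal regulator named after its values were seen (0.37). The 12 h call of MLXIP was lost without 12 h replicate 1 (-0.10) or 2 (-0.084), and that of ARRDC4 without 12 h replicate 3 (0.13). ARRDC4 at 24 h was lost without 0 h replicate 2 or 24 h replicate 3 (0.09 to 0.15 over the libraries), and USF2 without 0 h replicates 1 or 2 or 12 h replicates 2 or 3 (-0.12 to -0.081). USF2 was also lost when all genes with a count were tested (edgeR adjusted p = 0.0619).

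Of 21 coactivators of MYC, 5 rose and 2 fell at 12 h (33.3% called, beside 18.7% of all genes), and 2 rose and 1 fell at 24 h (14.3%, beside 21.1%). The helicases RUVBL1 and RUVBL2 rose at both times, by 0.24 and 0.19 for RUVBL1 and by 0.18 at each time for RUVBL2. RUVBL1 overlaps SEC61A1 on the other strand, a gene with 453% of its reads. The acetyltransferase CREBBP fell by 0.27 at 12 h (77.4 ± 2.22 to 64.3 ± 4.41 CPM) and the host cell factor HCFC1 by 0.15, a call lost without 12 h replicate 2 (-0.098). Of 18 corepressor genes of the SIN3 and NCOR complexes, 3 rose and 2 fell at 12 h (27.8%), and 2 rose and 1 fell at 24 h (16.7%). SINHCAF rose by 0.23 and 0.21 (108 ± 1.48, 127 ± 2.88 and 124 ± 1.03 CPM). At 12 h SAP130 rose by 0.16 and SUDS3 fell by 0.11. The call of SAP130 was lost without 0 h replicates 1 or 2 or any 12 h replicate (0.12 to 0.22 over all libraries left out in turn), and that of SUDS3 without 0 h replicate 3 or 12 h replicates 1 or 2 (-0.12 to -0.087).

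Of 20 genes that set the stability of the MYC protein, 3 rose and 1 fell at 12 h (20% called, near the 18.7% of all genes), and 3 rose and 2 fell at 24 h (25%, near 21.1%). The 24 h count was 8 without 0 h replicate 2. The kinases PLK1 and AURKA, which stabilize MYC proteins and are known for mitosis, fell at 24 h by 0.21 and by 0.20 and did not pass at 12 h (0.09 and 0.08). USP36, a nucleolar deubiquitinase, rose by 0.12 and 0.19, and AXIN1, a scaffold of MYC degradation, by 0.15 and 0.22. Without scaling factors the 12 h calls of USP36 and AXIN1 were lost (0.11 and 0.14, edgeR adjusted p = 0.0706 and 0.0581), as was that of USP36 when all genes with a count were tested (edgeR adjusted p = 0.0754). The 12 h call of USP36 was also lost without 0 h replicates 1 or 3 or 12 h replicates 1 or 2 (0.099 to 0.15), and that of AXIN1 without 0 h replicates 1 or 3 or any 12 h replicate (0.092 to 0.22). Among 11 subunits of the PRC1.6 complex, which MGA scaffolds, none passed at 12 h by edgeR or DESeq2 (3 had an unadjusted p under 0.05), although 1 passed by edgeR with the replicate block, with all genes with a count, without 0 h replicate 2 and without 12 h replicate 1. At 24 h 1 fell, the heterochromatin protein CBX1 (by 0.14). By edgeR, 0% and 9.09% of these subunits thus passed at 12 and 24 h, beside 18.7% and 21.1% of all genes. Of 8 tested germline genes that PRC1.6 is known to silence, 1 fell at 12 h (12.5% called, beside 18.7% of all genes). None passed at 24 h by edgeR or DESeq2, beside 21.1% of all genes by edgeR, and 1 had an unadjusted p under 0.05. At 24 h 1 passed by edgeR with at least 10 counts in every library, with the 6 compared libraries alone and without any one of the 12 h replicates, and 2 passed without 0 h replicate 3. The gene that fell at 12 h was SYCP3, a meiotic gene that went from 0.768 ± 0.256 to 0.381 ± 0.171 CPM, whose call (edgeR adjusted p = 0.0445) was lost without 0 h replicates 1 or 2 or 12 h replicates 2 or 3 (-1.42 to -0.70). It overlaps CHPT1, on the other strand, which had 92279 reads against 259 of SYCP3.

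**Figure D5:**
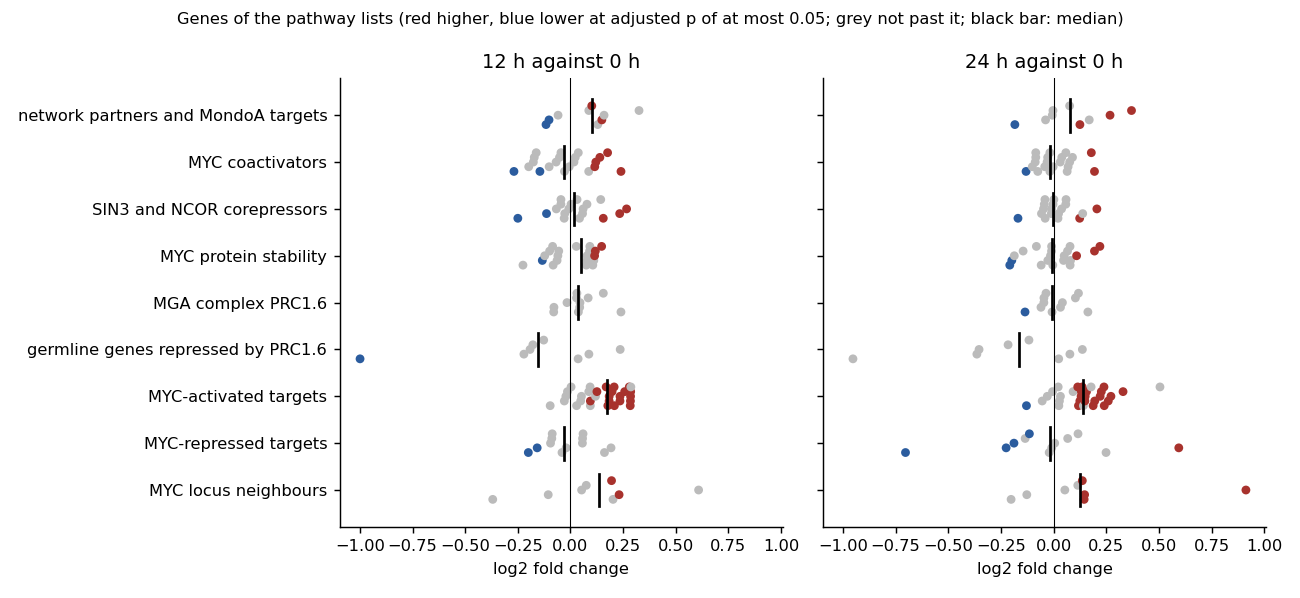
Log2 fold change at 12 h and 24 h against 0 h for the tested genes of each of the 9 lists, with genes at an adjusted p of at most 0.05 in red (higher) or blue (lower), other genes in grey and the median of each list as a black bar. The list of MYC-activated targets has medians of 0.17 and 0.14, and that of MYC-repressed targets -0.030 and -0.015.

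The genes whose log2 CPM followed that of MYC most closely over the 9 libraries, out of 11399 compared, were DUSP4 (Pearson r = 0.994), XPO6 (0.992), ETF1 (0.990), LIMCH1 (0.990) and UAP1 (0.990). DUSP4, a phosphatase of MAP kinases, had means of 57.2, 105 and 102 CPM at 0, 12 and 24 h, and UAP1, an enzyme of UDP-N-acetylglucosamine synthesis, had 270.3, 436 and 403 CPM. Closest to MXI1 were ISG20L2 (0.990), GATA2 (0.984) and FERMT1 (0.984), and closest to MNT were VRK2 (0.986), TAF4B (0.981) and PEX26 (0.971). MXD4 was followed by SPINT2 (0.983), NWD1 (0.981) and the AP-1 subunit JUN (0.980; 104, 76.2 and 84.5 CPM), and MXD1 by ABHD18 (0.979), FBXO36 (0.958) and ERGIC2 (0.951). Among the members themselves, r with MYC was 0.96 for MXI1, 0.93 for MNT, -0.95 for MXD4 and 0.022 for MAX. The 9 points of each r share their libraries and 3 times, so genes that stepped between 0 and 12 h correlate for that step alone.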

How the data were processed

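Per the study's methods, the authors trimmed read pairs with Cutadapt, aligned them with STAR to GRCh38 and counted them per GENCODE gene with featureCounts. Strand and multiple mapping were not stated. The authors deposited whole-number counts per gene, not normalized and not pooled. The methods state that a time 0 LNCaP replicate was left out for quality, with the treatment unnamed. The captions give all 3 replicates for NRG1 but a varying number for ASPN, the other ligand of the study, which places that replicate outside the NRG1 libraries. All 9 libraries of the table were used. The table held 14 empty columns.

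The network members and the gene lists were chosen with earlier results of these data known. The edgeR package (version 4.0.16, R 4.3.3) was used to test the counts (filterByExpr, TMM scaling, robust quasi-likelihood fit of 9 libraries by time), and p-values were adjusted by Benjamini-Hochberg over 19250 genes. DESeq2 1.42.0 was an alternative, along with other scaling, filters, a replicate block and each library left out. CPM use TMM-scaled totals. The depth of 47016302 to 60985825 counts limits counting error only, since no molecular identifiers were used. Genes were named as all members, up to 4 of each list by the F test with any past a fold of 1.5, and those most correlated with a changed member. A gene that this rule names is not reported here. Exon lengths are from GENCODE for GRCh38, and overlaps and near-identical copies (BLAST 2.17.0, at least 95% over 150 bases) were sought. The fit was tested on simulated data.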

Additional observations from a re-analysis of the deposited data

Results flagged for a closer look

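For 9 of the list genes named by the rule, among the 16 list genes that passed, the effects at 12 h and 24 h differed in the direct edgeR test of 24 h against 12 h. On the log2 scale, HCFC1 was higher at 24 h by 0.14 (edgeR adjusted p = 0.0218), CREBBP by 0.18 (edgeR adjusted p = 0.00603) and CLU by 0.40 (edgeR adjusted p = 0.00125). SAP130 fell between those times (-0.21, edgeR adjusted p = 0.00943), as did CBX1 (-0.12, edgeR adjusted p = 0.026) and CDKN1A (-0.17, edgeR adjusted p = 0.00083). CDKN1C fell as well (-0.61, edgeR adjusted p = 0.00619). AURKA and PLK1 fell too, at -0.28 and -0.30 (edgeR adjusted p = 0.00045 and 3e-05). CDKN1C was lost without 12 h replicate 1 (-0.51), CREBBP without 12 h replicate 2 (0.13) and SAP130 without 24 h replicate 3 (-0.18). HCFC1 was lost without 12 h replicates 1 or 2 or 24 h replicates 2 or 3 (0.10 to 0.19), and CBX1 without 12 h replicates 2 or 3 or 24 h replicates 2 or 3 (-0.15 to -0.082). None of the 10 network members was among them.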

How the results depend on the processing

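Replicate numbers did not pair the libraries. Deviations of same-numbered libraries correlated at -0.0327 to 0.0254, and 2 of 9 libraries correlated best with their own number. With the replicate block, 5, 6 and 0 members passed at 12 h, at 24 h and between them, as without it, and the block moved the calls over all genes from 3605, 4065 and 1171 to 3672, 4081 and 1262. Among the gene lists, the block took the PRC1.6 count at 12 h from 0 to 1. Of 480 alternative values of the members, 458 kept their direction and their side of the threshold. Without scaling factors, MAX and MGA at 12 h were at -0.00066 and -0.0036. With 1 library left out, MAX ranged from -0.023 to 0.065 at 12 h and from -0.064 to 0.023 at 24 h, and MGA from -0.039 to 0.10 at 12 h. Between 24 and 12 h, MXI1 ranged from -0.050 to 0.0046, MNT from -0.053 to 0.00034 and MLX from -0.038 to 0.0038. The members that passed numbered 5 to 6 at 12 h, 5 to 7 at 24 h and 0 between them.

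List genes past a fold of 1.5 at 12 h numbered 1, and 0 when all genes with a count were tested (SYCP3 at an adjusted p of 0.0501). Leaving out 1 library gave 0 to 1 at 12 h and 0 to 1 between 24 and 12 h, and list genes that passed between 24 and 12 h numbered 10 to 20, with 10 without 12 h replicate 2 or 24 h replicate 3. The balance moved by 0.51 and 0.43 at 12 and 24 h without MXD1, by 0.40 and 0.31 without MXD4, and by 0.29 at 24 h without MXD3. Genes called at 12 h numbered as few as 1 of the 4 network partners without 12 h replicate 2 (at 24 h, 2 of 4 without 0 h replicate 2 or 24 h replicate 3), 4 of the 7 coactivators without it, 2 of the 5 corepressors without 12 h replicate 1, and 1 of the 4 stability genes without 0 h replicate 1 or 12 h replicates 1 or 2. The 4 genes of the region around MYC called at 24 h were 2 without 24 h replicates 1 or 3. The cause of these shifts was not tested. MXD1, MXD3 and MYCL rest on the fewest reads, which limits their precision.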
